A study of Mus musculus with 9 samples.

Results

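A set of 8 desmosomal cadherin genes of the mouse, 5 desmogleins (Dsg1a, Dsg1b, Dsg1c, Dsg2 and Dsg3) and 3 desmocollins (Dsc1, Dsc2 and Dsc3), was followed in whole corneas of 3 genotypes. They were taken by name from the 22180 genes with a row of their own on the array, and all 8 were measured. Dsg4, a further desmoglein gene, was not among the 8 and is given below with other genes. The rescued group carried the Dstn corn1 mutation and had also lost Srf from the corneal epithelium by genetic ablation. The mutant group carried the Dstn corn1 mutation alone, and the third group was wild type (WT). Dstn encodes destrin, an actin depolymerising factor, and Srf encodes serum response factor, a transcription factor of actin and growth genes. All mice, WT included, received doxycycline by intraperitoneal injection from postnatal day 28 to postnatal day 58, were 58 days old at collection and had a mixed strain background of FVB, Swiss Black, 129, C57BL6/J and A.BY. The sources used here do not name the driver of the Srf ablation, or say whether mutant and WT mice carried parts of that system. Each group had 3 biological replicates, each a pool of 10 corneas from 5 mice, so that the spread between single animals was not measured.

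Desmosomes are the spot-like junctions that tie epithelial cells together and anchor their keratin filaments. Desmogleins and desmocollins are their transmembrane adhesion molecules, and inside the cell they bind plakoglobin and plakophilins, which link through desmoplakin to keratin. In stratified epithelium of the skin, desmoglein 1 and desmocollin 1 are most abundant in the upper layers, and desmoglein 3 and desmocollin 3 in the lower layers. Desmoglein 2 and desmocollin 2 are also made by simple epithelia and by heart muscle. The mouse has 3 copies of the desmoglein 1 gene, Dsg1a, Dsg1b and Dsg1c, which are close paralogs, so probes for one may also bind transcripts of another. The genes were grouped here as superficial (Dsg1a, Dsg1b, Dsg1c and Dsc1), basal (Dsg3 and Dsc3) and widely expressed (Dsg2 and Dsc2).

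Values are log2 intensities as normalised by the authors, and levels of different genes are not comparable because each gene has its own probes. Genes whose level lay below 6.77, the median of all rows, had no signal shown above background. Array medians were 6.75 to 6.78, and correlations between arrays of 1 group were 0.990 to 0.993. Dstn averaged 5.62 in rescued, 5.63 in mutant and 12.57 in WT corneas, and Srf averaged 9.01, 10.68 and 9.13 in the same order. Krt12, the keratin gene that defines corneal epithelium, averaged 13.92 in rescued, 13.53 in mutant and 13.95 in WT corneas. It was lower in the mutant than in WT and higher in the rescued than in the mutant pools (limma adjusted p = 0.000261 and 0.00142). The pools differed in their Y-linked signal, whose mean over 3 genes ranged over 7.16 to 9.11 in rescued, 7.77 to 9.77 in mutant and 5.15 to 9.77 in WT pools. WT replicates 1 and 3, at 5.34 and 5.15, lay below every rescued and mutant pool. Xist, the X inactivation gene, was 6.12 in mutant replicate 2 and 11.76 to 12.94 in every other pool. The mix of sexes was thus not balanced between the groups.

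Dsg1a fell 5.08-fold and Dsg3 rose 1.75-fold in the mutant against WT, while Dsg2 and Dsc3 fell by less and the other 4 genes did not pass the test. In mutant against WT corneas, Dsg1a, Dsg2 and Dsc3 fell and Dsg3 rose, which is 4 of 8 members called, where 31.6% of all genes were called, 16.5% as lower and 15.1% as higher (limma over all genes, Benjamini-Hochberg adjusted p under 0.05). In rescued against mutant corneas Dsg1a and Dsg1b rose and Dsg3 fell, 3 of 8 members where 13.3% of all genes were called, 6.88% as lower and 6.46% as higher. In rescued against WT corneas Dsg1b, Dsg3 and Dsc2 rose and Dsg1a fell, 4 of 8 members where 13.7% of all genes were called, 7.43% as lower and 6.28% as higher. The comparisons share groups, since the mutant arrays serve the first and the second and the WT arrays the first and the third. The median log2 difference of the 8 members was −0.06, 0.13 and 0.08 in the 3 comparisons, against −0.02, −0.002 and −0.01 over all genes. In each comparison some members rose, some fell and at least 4 did not pass.

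**Figure D1:**
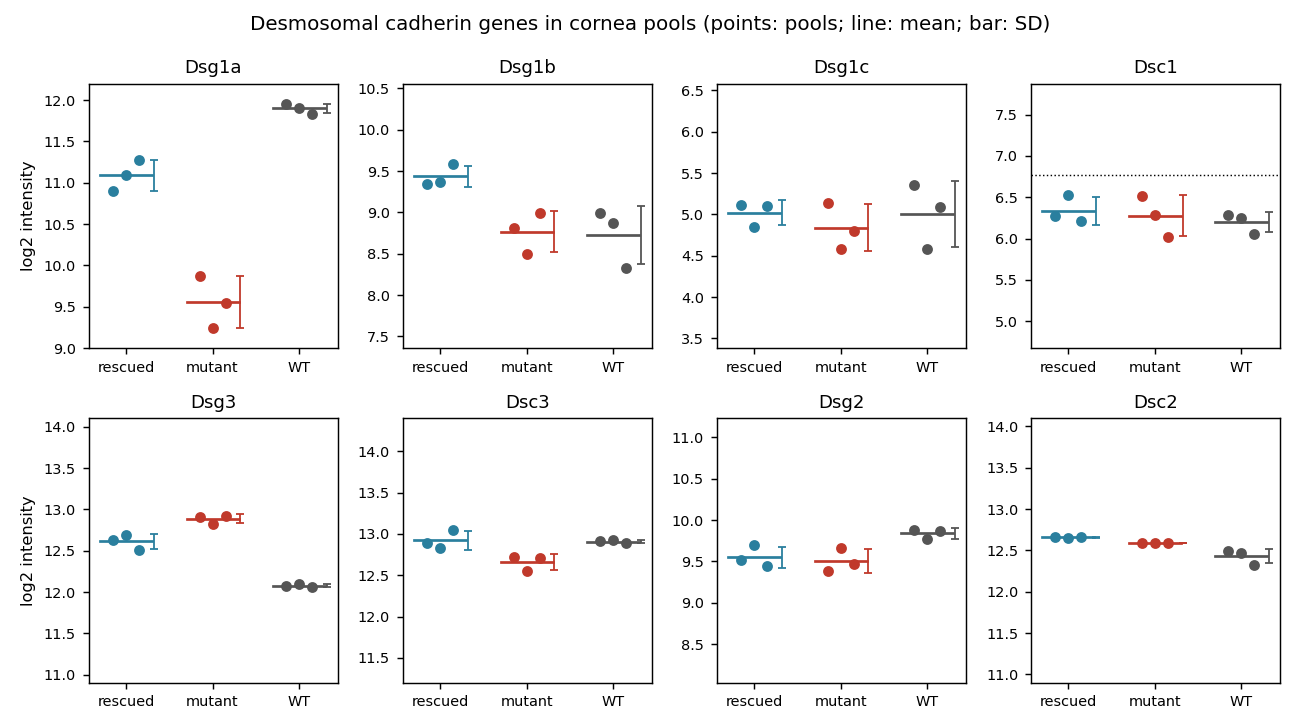
Log2 intensity of each desmosomal cadherin gene (y axis, each panel spanning 3.2 log2 units) in the 3 pools of each group. Points are pools, lines are group means, bars are SDs, and the dotted line marks the median of all rows, 6.77, which only the range of the Dsc1 panel includes. Dsg1a is lowest and Dsg3 highest in the mutant, with the rescued pools between the mutant and WT pools for both.

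Dsg1a, which had the largest differences of the 8 genes in all comparisons, encodes a desmoglein 1 of the superficial class. Its log2 intensity was 10.90, 11.09 and 11.28 in the rescued pools, 9.87, 9.25 and 9.54 in the mutant pools and 11.96, 11.90 and 11.84 in the WT pools. The 3 groups did not overlap: all rescued pools lay above all mutant pools and below all WT pools. Dsg1a was 5.08-fold lower in the mutant than in WT (log2 difference −2.35, SE 0.15, limma adjusted p = 3.42e-06), and 46 of 22180 genes, or 0.207%, had a decrease at least that large. It was 2.90-fold higher in the rescued than in the mutant pools (log2 difference 1.54, SE 0.15, adjusted p = 0.000211), where 53 genes had an increase at least that large. It remained 1.75-fold lower in the rescued pools than in WT (log2 difference −0.81, SE 0.15, adjusted p = 0.00652). These calls held under each of the 19 alternative settings tried, with log2 differences of −2.51 to −2.19 for mutant against WT, 1.38 to 1.70 for rescued against mutant and −0.90 to −0.71 for rescued against WT.

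Dsg1b, the neighbouring copy of the desmoglein 1 gene, had another pattern. Its log2 intensity was 9.35, 9.37 and 9.59 in the rescued pools, 8.82, 8.50 and 8.99 in the mutant pools and 8.99, 8.87 and 8.33 in the WT pools. The mutant and WT pools overlapped, and every rescued pool lay above all 6 of them. The difference between mutant and WT was 0.04 on the log2 scale, with a 95% confidence interval of −0.36 to 0.44 (adjusted p = 0.900), an interval that does not reach the decrease of Dsg1a. Dsg1b was 1.59-fold higher in the rescued than in the mutant pools (log2 difference 0.67, SE 0.18, adjusted p = 0.0358) and 1.63-fold higher than in the WT pools (log2 difference 0.71, SE 0.18, adjusted p = 0.0278). Both increases kept their direction over the settings, at 0.53 to 0.78 and 0.51 to 0.84 on the log2 scale, but their calls were often lost. Each was called under 12 of 19 alternative settings. The first was no longer called without mutant replicate 1 or 2 (adjusted p = 0.0836 and 0.0992) or without rescued replicate 1, 2 or 3 (adjusted p = 0.0674, 0.0685 and 0.121). The second was no longer called without rescued replicate 1, 2 or 3 (adjusted p = 0.0601, 0.0712 and 0.0749), without WT replicate 3 (adjusted p = 0.0605), or with Y-linked expression as a covariate (adjusted p = 0.0808). Neither was called with replicate number as a block, nor at a threshold of 0.01 for the adjusted p.

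The other superficial genes were dim. Dsg1c, the third copy of the desmoglein 1 gene, lay between 4.85 and 5.11 in the rescued, 4.58 and 5.14 in the mutant and 4.58 and 5.36 in the WT pools. Dsc1, the desmocollin of the upper epidermis, lay between 6.21 and 6.53 in the rescued, 6.02 and 6.52 in the mutant and 6.06 and 6.28 in the WT pools. All groups overlapped for both genes, and both lay below the median of all rows in every pool, so that signal above background was not shown for either. Neither passed the F test across the 3 groups (limma, adjusted p = 0.735 for Dsg1c and 0.719 for Dsc1), whereas the 6 brighter members did, against 29.4% of all genes. Of the superficial class, Dsg1a and Dsg1b alone lay above that median.

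Dsg3 encodes the desmoglein of the lower layers of stratified epithelium. Its log2 intensity was 12.64, 12.69 and 12.51 in the rescued pools, 12.91, 12.83 and 12.92 in the mutant pools and 12.08, 12.10 and 12.06 in the WT pools. The groups did not overlap, with the mutant pools highest, the WT pools lowest and the rescued pools between them. Dsg3 was 1.75-fold higher in the mutant than in WT (log2 difference 0.81, SE 0.07, adjusted p = 1.5e-05) and 1.45-fold higher in the rescued pools than in WT (log2 difference 0.53, SE 0.07, adjusted p = 0.000867). Both calls held under all 19 alternative settings. It was 1.21-fold lower in the rescued than in the mutant pools (log2 difference −0.27, SE 0.07, adjusted p = 0.0231). That decrease was no longer called without mutant replicate 1 or 3 (adjusted p = 0.0794 and 0.0822) or without rescued replicate 1 or 3 (adjusted p = 0.0516 and 0.0854), nor with the 6 arrays of the comparison alone (adjusted p = 0.0549).

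Dsc3, the desmocollin that is the usual partner of desmoglein 3 in lower layers, went the other way. Its log2 intensity was 12.90, 12.83 and 13.05 in the rescued pools, 12.73, 12.55 and 12.71 in the mutant pools and 12.91, 12.93 and 12.89 in the WT pools. All mutant pools lay below all other pools, and the rescued pools lay around the WT pools. Dsc3 was 1.19-fold lower in the mutant than in WT (log2 difference −0.25, SE 0.08, adjusted p = 0.0330). It did not pass the test in rescued against mutant corneas (log2 difference 0.26, SE 0.08, adjusted p = 0.0505) or in rescued against WT corneas (log2 difference 0.02, 95% confidence interval −0.16 to 0.19, adjusted p = 0.931). The decrease in the mutant was no longer called without mutant replicate 2 or 3 (adjusted p = 0.112 and 0.0531) or without WT replicate 1, 2 or 3 (adjusted p = 0.0772, 0.0888 and 0.0636). It was also lost with Y-linked expression as a covariate (adjusted p = 0.0919). The rescued against mutant increase was called under 4 of 19 settings: without rescued replicate 2 (log2 difference 0.31, adjusted p = 0.0438), with quantile normalisation (adjusted p = 0.0423), among genes above the median of all rows (adjusted p = 0.0210) and with limma's trend and robust settings (adjusted p = 0.0091).

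Dsg2, the desmoglein shared by simple epithelia and heart, had log2 intensities of 9.52, 9.69 and 9.44 in the rescued pools, 9.39, 9.67 and 9.46 in the mutant pools and 9.89, 9.77 and 9.86 in the WT pools. Every WT pool lay above all rescued and mutant pools, which overlapped with each other. Dsg2 was 1.26-fold lower in the mutant than in WT (log2 difference −0.33, SE 0.09, adjusted p = 0.0205). Between rescued and mutant pools the difference was 0.04 on the log2 scale (95% confidence interval −0.16 to 0.25, adjusted p = 0.817), and rescued against WT did not pass (log2 difference −0.29, adjusted p = 0.0715). The decrease in the mutant was no longer called without mutant replicate 1 or 3 (adjusted p = 0.0778 and 0.0664), without WT replicate 1 or 3 (adjusted p = 0.0656 and 0.0589), or with Y-linked expression as a covariate (adjusted p = 0.0534). Without mutant replicate 2 the rescued against WT decrease was called (adjusted p = 0.0486). Dsg2 alone among the members has a second row on the array, which was dim, between 6.24 and 6.57 over the 9 pools. With the mean of both rows the mutant against WT difference was −0.09 (adjusted p = 0.311).

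Dsc2 is the desmocollin of the same class. Its log2 intensity was 12.66, 12.65 and 12.66 in the rescued pools, 12.59, 12.59 and 12.58 in the mutant pools and 12.49, 12.46 and 12.33 in the WT pools. The groups did not overlap, but the steps between them were small. Dsc2 was 1.17-fold higher in the rescued pools than in WT (log2 difference 0.23, SE 0.06, adjusted p = 0.0338), and did not pass in mutant against WT (log2 difference 0.16, adjusted p = 0.0767) or rescued against mutant corneas (log2 difference 0.07, 95% confidence interval −0.06 to 0.21, adjusted p = 0.516). The increase was called under 8 of 19 alternative settings. It was no longer called without mutant replicate 1 or 3 (adjusted p = 0.0516 and 0.0529), rescued replicate 1, 2 or 3 (adjusted p = 0.0869, 0.0853 and 0.0749) or WT replicate 2 or 3 (adjusted p = 0.0651 and 0.0967). It was also lost with the 6 arrays of the comparison alone (adjusted p = 0.0758) and with Y-linked expression as a covariate (adjusted p = 0.0961). The same held with replicate number as a block and at a threshold of 0.01 for the adjusted p. Pools of 2 groups did not overlap for 5 of 8 members in each comparison, where 44.7%, 32.2% and 31.6% of all genes did not overlap in mutant against WT, rescued against mutant and rescued against WT corneas.

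**Figure D2:**
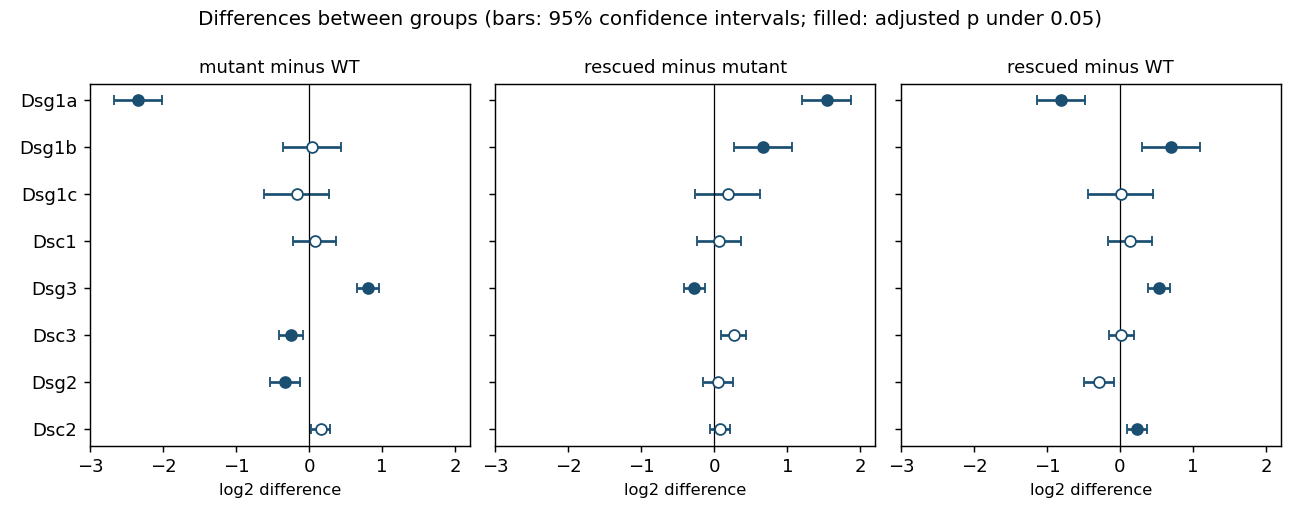
Log2 difference of each desmosomal cadherin gene (x axis) in mutant minus WT, rescued minus mutant and rescued minus WT corneas, from limma over all 9 arrays. Points are differences, bars are 95% confidence intervals, and filled points have an adjusted p under 0.05. Dsg1a lies at −2.35, 1.54 and −0.81 in the 3 panels, and Dsg3 at 0.81, −0.27 and 0.53.

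Superficial and basal genes were set against each other within each array, as a description without a test. The mean log2 intensity of the 4 superficial genes minus that of the 2 basal genes was −4.86, −4.80 and −4.74 in the rescued pools, −5.23, −5.54 and −5.48 in the mutant pools and −4.35, −4.61 and −4.65 in the WT pools. These balances have no meaning as ratios of molecules. A constant offset of a probe cancels in their shifts between groups. Genes without signal shown above background, here Dsg1c and Dsc1, may still dilute the shift of the superficial mean. The balance shifted by −0.88 in mutant against WT, 0.62 in rescued against mutant and −0.26 in rescued against WT. In mutant against WT, the superficial mean differed by −0.60 and the basal mean by 0.28. The first rests on Dsg1a, since the median of the 4 superficial differences was −0.06, and the second averages 0.81 for Dsg3 and −0.25 for Dsc3. From means of linear intensities the 3 shifts were −1.97, 1.20 and −0.77. The last of the 3 shifts was −0.17 without WT replicate 1. With Dsg1a and Dsg1b alone for the superficial class, a choice made after seeing that Dsg1c and Dsc1 were dim, the shifts were −1.43, 1.11 and −0.33.

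The classes were not uniform inside. Dsg1a over Dsg1b, the log2 ratio of both bright superficial genes within an array, averaged 1.66 ± 0.08 in rescued, 0.79 ± 0.26 in mutant and 3.17 ± 0.29 in WT pools (SD, n = 3 each), with no overlap between groups. Dsg3 over Dsc3, the basal pair, averaged −0.31 ± 0.21 in rescued, 0.23 ± 0.05 in mutant and −0.83 ± 0.01 in WT pools, again without overlap. Dsg1a over Dsg3, the superficial against the basal desmoglein, averaged −1.52 ± 0.26 in rescued, −3.33 ± 0.27 in mutant and −0.18 ± 0.05 in WT pools. Of the 4 pairs described, this one differed most in mutant against WT (−3.15) and in rescued against mutant (1.81), and Dsg1a over Dsg1b differed most in rescued against WT (−1.51). Dsg2 over Dsc2 averaged −3.11 ± 0.14 in rescued, −3.08 ± 0.15 in mutant and −2.59 ± 0.12 in WT pools, and the rescued and mutant pools overlapped. These pairs were chosen after the values were seen and were not tested.

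**Figure D3:**
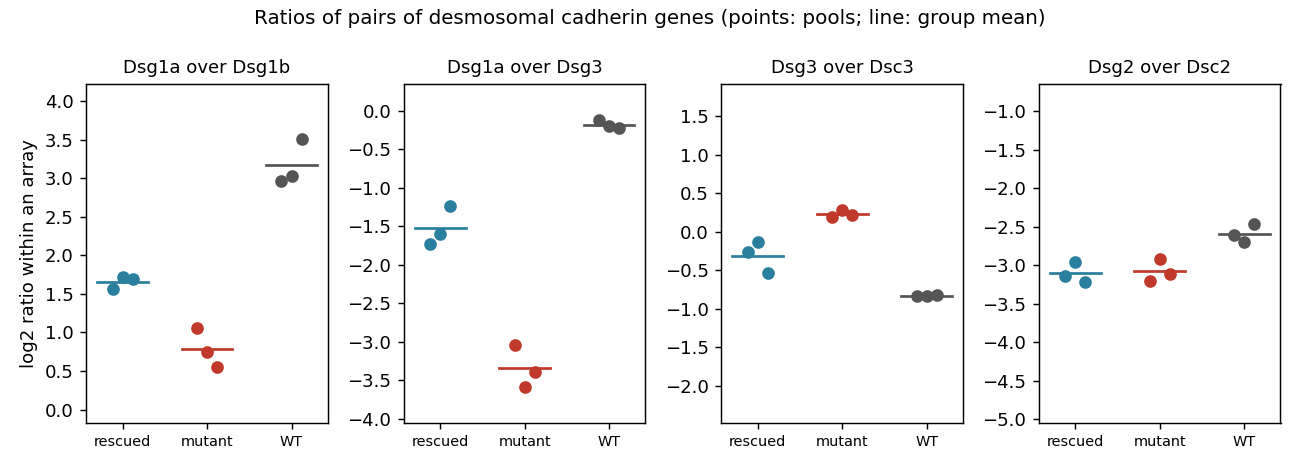
Log2 ratio of pairs of desmosomal cadherin genes within an array (y axis, each panel spanning 4.4 log2 units) for the pools of each group. Points are pools and lines are group means. In Dsg1a over Dsg3 the mutant mean is −3.33 against −0.18 in WT, while in Dsg2 over Dsc2 the rescued and mutant pools overlap.

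Intracellular partners of the cadherins were read in a further list, together with other desmosome-associated genes, Dsg4 among them. Of 10 plaque and desmosome-associated genes, 2 rose, 2 fell and 6 did not pass in mutant against WT corneas, where 31.6% of all genes were called, and the list had a median of 0.04 on the log2 scale, against −0.02 over all genes. Jup, the gene for plakoglobin, and Dsp, the gene for desmoplakin, did not pass the test (log2 differences 0.16 and 0.01, adjusted p = 0.0797 and 0.878). Among the plakophilins, Pkp2, the form shared with simple epithelia and heart, was 3.14-fold higher (adjusted p = 2.85e-05), Pkp1, the form of stratified epithelia, was 1.28-fold higher (adjusted p = 0.00772), and Pkp3 had a log2 difference of −0.04. The cornified envelope plakins Ppl (periplakin) and Evpl (envoplakin) were 1.72-fold and 1.76-fold lower (adjusted p = 1.33e-05 and 1.67e-05).

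Of these 10 genes, 2 rose and 1 fell in rescued against mutant corneas, where 13.3% of all genes were called, against 13.7% in rescued against WT. Ppl and Evpl were 1.71-fold and 1.74-fold higher, and Pkp2 was 2.52-fold lower (adjusted p = 8.59e-05, 0.000106 and 0.000472). Against WT, Pkp1 was the 1 member called in the rescued corneas, at 1.24-fold higher (adjusted p = 0.0324), and Ppl and Evpl each had a log2 difference of −0.01. Dsg1a, by contrast, was still 1.75-fold below WT in the rescued corneas. Dsg4, the remaining desmoglein gene and one mainly of hair follicles, averaged 5.30 in rescued, 5.76 in mutant and 5.33 in WT corneas, below the median of all rows, and passed in no comparison.

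Other adhesion genes were read beside the desmosomal cadherins. Of 10 classical cadherin and adherens junction genes, 5 rose and 3 fell in mutant against WT corneas, where 31.6% of all genes were called. Cdh3, the gene for P-cadherin, a cadherin of basal cells, was 6.08-fold higher (adjusted p = 3.79e-06), and Vcl, the gene for the actin linker vinculin and a target of Srf, was 3.68-fold higher (adjusted p = 2.7e-06). Cdh1, the gene for E-cadherin, was 1.36-fold higher (adjusted p = 0.000316), the direction of Dsg3 and not of Dsg1a. Rescued against mutant, where 13.3% of all genes were called, 2 of the 10 rose and 4 fell, with Cdh3 2.25-fold lower (adjusted p = 0.00175). Of 8 measured hemidesmosome genes, which fasten basal cells to the basement membrane, 3 rose and 1 fell in the mutant: Lamb3, a laminin chain gene, was 2.14-fold higher (adjusted p = 4.82e-06) and Col17a1 1.40-fold lower (adjusted p = 0.000151). Rescued against mutant, 1 of these 8 rose and 2 fell.

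Proteases that cut desmosomal cadherins and their inhibitors were a further list of 10. In mutant against WT corneas 4 rose and 1 fell, in rescued against mutant corneas 1 rose and 2 fell, and in rescued against WT corneas 4 rose and none fell. Over all genes, 31.6%, 13.3% and 13.7% were called in these comparisons. Spink5 encodes the inhibitor LEKTI, which restrains the kallikreins that digest desmoglein 1. It was 4.36-fold higher in the mutant than in WT and 4.24-fold higher in the rescued pools than in WT (adjusted p = 4.2e-06 and 3.44e-05), and the rescued and mutant pools differed by −0.04 on the log2 scale (95% confidence interval −0.35 to 0.27). Adam10, which encodes a metalloprotease that sheds cadherin ectodomains, was 1.68-fold higher in the mutant, and Prss8, the gene for prostasin, was 1.88-fold lower (adjusted p = 3.35e-05 and 4.58e-06). Against the mutant, Prss8 was 1.91-fold higher in the rescued pools, and Adam9, another shedding metalloprotease gene, and Adam10 were 1.55-fold and 1.28-fold lower (adjusted p = 2.21e-05, 0.0006 and 0.00844). The kallikrein genes Klk5, Klk7, Klk8 and Klk14 passed in no comparison.

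Of 11 transcription factors of stratified epithelium, 2 rose and 4 fell in mutant against WT corneas. Of the same 11 factors, 4 rose and 1 fell in rescued against mutant corneas. Among all genes, 31.6% were called in the first of these comparisons and 13.3% in the second. Grhl1, which encodes a grainyhead-like factor known to bind the desmoglein 1 promoter, was 1.64-fold lower in the mutant than in WT (log2 difference −0.71, adjusted p = 0.000119). It was 1.32-fold higher in the rescued than in the mutant pools and still 1.24-fold lower in the rescued pools than in WT (adjusted p = 0.0108 and 0.0308). Dsg1a was called in the same direction in each of these comparisons, which share arrays. Dsg1b had log2 differences of 0.04 in mutant against WT (adjusted p = 0.900) and 0.71 in rescued against WT. Whether Grhl1 had a part in the Dsg1a result was not tested. Klf4 and Prdm1, 2 factors of epithelial differentiation, were 1.55-fold and 2.36-fold lower in the mutant (adjusted p = 5.75e-05 and 1.48e-05) and 1.58-fold and 2.54-fold higher in the rescued than in the mutant pools (adjusted p = 0.000226 and 5.15e-05). Trp63, the gene for the basal cell factor p63, had log2 differences of 0.03 and −0.04 in these comparisons and passed in neither.

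**Figure D4:**
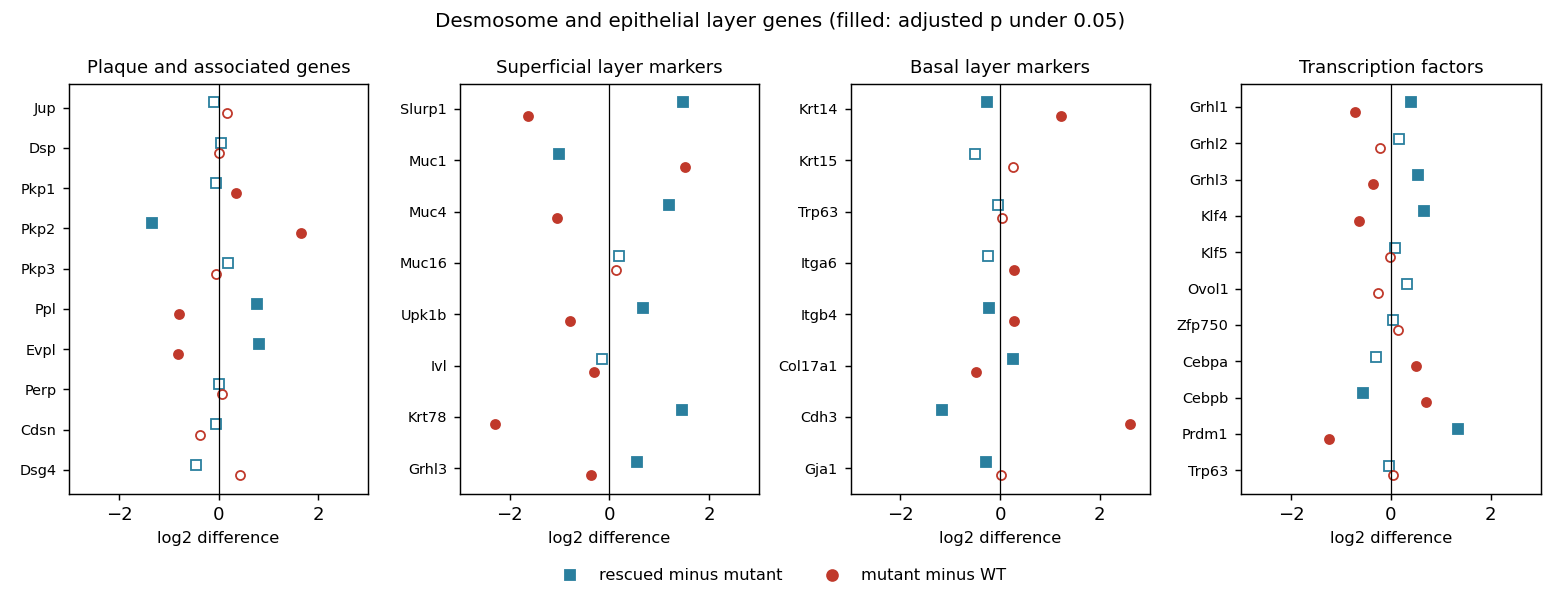
Log2 differences (x axis) of plaque and associated genes, superficial and basal layer markers and transcription factors in rescued minus mutant (squares) and mutant minus WT corneas (circles), which share the mutant arrays. Filled symbols have an adjusted p under 0.05. Ppl lies at 0.77 and −0.78 and Pkp2 at −1.33 and 1.65, and Jup and Dsp are open in both.

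Markers of epithelial layers were measured beside the cadherins, because in whole corneas fewer cells of a type and less RNA per cell cannot be told apart. Of 8 superficial layer markers, 6 fell and 1 rose in mutant against WT corneas, with a summed linear intensity of 17559 to 19208 in the mutant pools and 36287 to 36385 in the WT pools. Krt78, a keratin gene of differentiated cells, was 4.90-fold lower, Slurp1, the gene for a secreted Ly6 protein, 3.10-fold lower, and the mucin gene Muc4 2.08-fold lower, while Muc1 was 2.85-fold higher (adjusted p = 1.32e-05, 6.03e-07, 2.07e-06 and 0.000441). In rescued against mutant corneas 5 of the 8 rose and 1 fell, and the sum was 33693 to 35946 in the rescued pools. The shares of all genes called were 31.6% in mutant against WT and 13.3% in rescued against mutant corneas. In rescued against WT corneas, where 13.7% of all genes were called, none of the 8 rose, 2 fell and 6 did not pass. Their median log2 difference was 0.02, against −0.01 over all genes. Krt78 was 1 of the 2 that fell, and shared with Dsg1a a value still below WT in the rescued corneas (1.78-fold lower, adjusted p = 0.0152). The part of cell composition in the Dsg1a result was not tested.

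Of 8 measured basal layer markers, 4 rose and 1 fell in mutant against WT corneas, with a summed intensity of 40678 to 42133 in the mutant pools and 31676 to 32100 in the WT pools. Itga6, Itgb4 and Col17a1 were also counted above as hemidesmosome genes, Cdh3 as an adherens junction gene and Trp63 as a transcription factor. Krt14, a keratin gene of basal cells, was 2.33-fold higher in the mutant than in WT and 1.94-fold higher in the rescued pools than in WT (adjusted p = 2.08e-06 and 5.43e-05), as Dsg3 was 1.75-fold and 1.45-fold higher. Col17a1 was the marker that fell in mutant against WT corneas (1.40-fold lower, limma adjusted p = 0.000151). In rescued against mutant corneas 1 of the 8 rose and 4 fell, and the sum was 30999 to 37315 in the rescued pools. In rescued against WT corneas 2 rose, 2 fell and 4 did not pass, with a median log2 difference of 0.01, against −0.01 over all genes. The shares of all genes called were 31.6% in mutant against WT, 13.3% in rescued against mutant and 13.7% in rescued against WT corneas. Trp63 and Krt15, both further basal markers, did not pass in any comparison, and they were among the 3 of 8 not called in mutant against WT. The part of basal cell number in the Dsg3 result was not tested.

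Desmoglein 1 is also a gene of skin, and markers of eyelid epidermis were therefore read in the same pools. Of 13 markers, 3 rose and 3 fell in mutant against WT corneas, where 31.6% of all genes were called. Their summed intensity was 4715 to 6663 in the mutant pools and 18672 to 19906 in the WT pools. Krt10, whose keratin is typical of epidermal suprabasal cells, was 10.0-fold lower and Asprv1, the gene for an epidermal protease, 3.77-fold lower, whereas Dmkn, the gene for dermokine, was 5.54-fold higher (adjusted p = 1.49e-07, 2.44e-05 and 1.47e-05). In rescued against mutant corneas, where 13.3% of all genes were called, 2 of the 13 rose and 3 fell. Krt10 was 2.19-fold and Asprv1 3.63-fold higher (adjusted p = 0.000194 and 0.000159), and the sum was 14696 to 15749 in the rescued pools. The list as a whole did not follow these sums, to which Asprv1 and Krt10 are the brightest contributors: its median log2 difference in mutant against WT was 0.07, and Sbsn, like Dmkn, rose (2.13-fold, adjusted p = 0.00027). The defining cornified envelope genes of skin, Lor, Flg, Flg2, Rptn and Hrnr, named after their values were seen, averaged between 4.52 and 6.91 in every group, close to or below the median of all rows, and none of them passed in mutant against WT corneas. Flg lay above that median in the mutant pools and was lower in the rescued than in the mutant pools (log2 difference −0.41, adjusted p = 0.0279). Krt1, a keratin gene of the same list, averaged 7.02 in rescued, 7.13 in mutant and 7.48 in WT corneas, above that median. It was lower in the mutant than in WT (log2 difference −0.36, adjusted p = 0.0387). The part of skin in the Dsg1a result was not tested.

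Markers of other epithelia and other cells also differed between the groups. For the counts that follow, 31.6% of all genes were called in mutant against WT and 13.7% in rescued against WT corneas. Of 5 keratin genes of simple epithelium, 4 rose and 1 fell in mutant against WT corneas, with a summed intensity of 11214 to 14899 in the mutant pools and 1463 to 1746 in the WT pools. Of the cadherins also made by simple epithelia, Dsg2 had a log2 difference of −0.33 and Dsc2 of 0.16 (adjusted p = 0.0205 and 0.0767). In rescued against WT corneas 4 of the 5 rose and 1 fell, and the sum was 3727 to 6744 in the rescued pools. Of 9 conjunctiva and goblet cell markers 5 rose in the mutant and none fell (sum 15383 to 17141 in mutant and 5060 to 6617 in WT pools). The brightest of them in the mutant pools were Krt4 and Krt13, with means of 12.81 and 12.68. Muc5ac, counted as risen, averaged 6.19 in mutant and 5.74 in WT pools, below the median of all rows. Tff1, Spdef, Foxa3 and Clca1 did not pass. All 8 macrophage and leukocyte markers rose in the mutant (sum 3515 to 4604 in mutant and 1681 to 1982 in WT pools). So did 7 of 8 blood endothelium markers (2588 to 3759 and 1160 to 1221), whereas the other, Kdr, fell (log2 difference −0.59, limma adjusted p = 0.0133). Of 8 keratocyte markers none rose and 3 fell, all 4 measured corneal endothelium markers fell, and of 7 lens markers none rose and 3 fell. Of 9 measured corneal epithelium markers, 2 rose and 5 fell in the mutant, with sums of 41082 to 43082 in mutant and 51342 to 51985 in WT pools. Their part in the cadherin results was not tested.

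The 8 genes lie in a single cluster on mouse chromosome 18. In the order of the GRCm38.p6 gene table, 13 annotated genes span the cluster. The 5 that are no members lie among them, and Dsg4 is the measured one of these. In that order the members are Dsc3, Dsc2, Dsc1, Dsg1c, Dsg1a, Dsg1b, Dsg3 and Dsg2. The mutant against WT log2 differences along it were −0.25, 0.16, 0.08, −0.17, −2.35, 0.04, 0.81 and −0.33. Beyond Dsg2, the next measured gene is Ttr, the gene for transthyretin, which fell in mutant against WT corneas (log2 difference −0.59, adjusted p = 0.0126), and then B4galt6 and Trappc8, which passed in no comparison. On the side of Dsc3 the next measured loci, 1700001G01Rik, 4921533I20Rik and 4930545E07Rik, were all dim. Of these, 4921533I20Rik was called in rescued against WT corneas (log2 difference −0.51, adjusted p = 0.0189).

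Genes with the most similar pattern were sought for each member by Euclidean distance over the 9 arrays, after centring each gene on its mean, among 12696 genes above the median of all rows. The nearest to Dsg1a were Sphkap, Emx2os and Kctd12, at distances of 0.48, 0.52 and 0.54 on the log2 scale. Their mutant against WT log2 differences were −2.14, −2.24 and −2.31, and their rescued against WT differences were −0.54, −0.69 and −0.76. The nearest to Dsg3 were Arhgef10l, Cyyr1 and Stim2, at 0.13, 0.15 and 0.16, with mutant against WT differences of 0.84, 0.84 and 0.92. Dsg1b lay nearest to Ank2 at 0.41, Dsc3 to Arhgap28 at 0.13, Dsg2 to Runx1t1 at 0.17 and Dsc2 to Kars at 0.09. Inside the family, Dsg1a was 3.01 away from its neighbouring copy Dsg1b and 3.91 away from Dsg3, the largest of the 28 distances between members. The distances were not scaled, and Dsg1a lay 2.96 away from its own mean over the arrays, against 1.16 for Dsg1b. Its smallest distance to a member was 2.62, to Dsc3. The distance of Dsg1a from Dsg1b thus largely reflects the size of the Dsg1a differences.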

How the data were processed

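The deposited value table holds log2 intensities, already normalised by the authors. The sources used here name no normalisation method or software. The log base, 2, was judged from the values, which run from 2.14 to 14.3. Labels name Trizol extraction, the Ambion WT Expression kit and the Affymetrix WT Terminal Labeling kit. Of 41345 rows, 23521 have exactly 1 gene symbol in the platform annotation, and the brightest row by mean over 9 arrays stood for a gene, which left 22180 genes. The 3 comparisons were fitted with limma 3.58.1 (R 4.3.3) over all 9 arrays, without an intensity filter, and p-values were adjusted by Benjamini-Hochberg over all genes. Tests were two-sided. The fit was tested on simulated data.

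Named genes were the 8 members, up to 4 genes of a list with the largest differences and those with a role at desmosomes, the neighbours of the cluster and the 3 nearest genes per member. The Klk genes, Trp63, Krt15, Krt1 and the cornified envelope genes of skin were named after their values were seen. Members and lists were chosen with earlier results of these data known, so no list was tested as a set. Some genes, such as Grhl2, Grhl3, Cdh1 and Krt19, are in several lists, so the counts of different lists are not independent. A few genes of the lists are not reported here. Alternatives were quantile normalisation, median centring, an intensity filter, the mean of a gene's rows, limma's trend and robust settings, a fit to the 6 arrays compared, array weights, a replicate block, a Y-linked covariate, an adjusted p under 0.01, and leaving out each array. Plots were made in matplotlib 3.10.9 (Python 3.11.15).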

Additional observations from a re-analysis of the deposited data

How the results depend on the processing

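Over 450 repeats of the members' values under other settings, 381 kept their direction and their side of the threshold, 45 lost the call, 9 gained one and 15 changed sign; the causes were not tested. Dsg1a in all comparisons, and Dsg3 against WT, kept their calls under all 19 settings. In mutant against WT, 1 gene was called higher and 3 lower. The filter and limma's trend and robust settings each gave 2 higher. The Y-linked covariate and an adjusted p under 0.01 each gave 1 lower, and leaving out arrays gave 1 to 3 lower, with 1 lower without mutant replicate 3, WT replicate 1 or WT replicate 3. In rescued against mutant, 2 genes were called higher and 1 lower. An adjusted p under 0.01 gave 1 higher and 0 lower, the 6 arrays alone gave 0 lower, quantile normalisation, the filter and the trend and robust settings each gave 3 higher, and leaving out arrays gave 1 to 2 higher and 0 to 1 lower. In rescued against WT, 3 were called higher and 1 lower. The filter and the trend and robust settings each gave 2 lower, the Y-linked covariate and an adjusted p under 0.01 each gave 1 higher, and leaving out arrays gave 1 to 3 higher and 1 to 2 lower. Replicate numbers did not pair the samples: deviations of same-numbered samples correlated at −0.02 to 0.06 over 9 pairs. With the replicate block, 1 gene was called higher in rescued against mutant and 1 in rescued against WT.

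The superficial minus basal shift in mutant against WT was −0.70 with Dsg2 and Dsc2 counted as basal, −1.97 from means of linear intensities and −1.43 with Dsg1a and Dsg1b alone. For rescued against mutant it was 1.20 and 1.11 under the last 2 of these, and in rescued against WT it was −0.77 from linear intensities. Leaving out arrays gave −0.97 to −0.79, 0.56 to 0.71 and −0.32 to −0.17 in the 3 comparisons.

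Changes of sign concerned uncalled differences. In mutant against WT, Dsg1b was −0.0080 and Dsg1c 0.11 with the Y-linked covariate, and leaving out arrays gave −0.16 to 0.17 for Dsg1b, −0.38 to 0.0082 for Dsg1c and −0.044 to 0.21 for Dsc1. Rescued against mutant, Dsg2 was −0.036 with the mean of its rows, and leaving out arrays gave −0.026 to 0.13 for Dsg2 and −0.067 to 0.18 for Dsc1. In rescued against WT, leaving out arrays gave −0.20 to 0.19 for Dsg1c and −0.047 to 0.063 for Dsc3. The 3 pools a group limit the precision, and Dsg1c and Dsc1 are limited by signal near background.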
